A study of Mus musculus with 12 samples.

Results

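The genes described here make, sense, take up and store cholesterol. They were chosen by name from the expression table, as 30 gene symbols of the sterol pathway, and the 30 were all found among its 17995 genes. They comprise 18 enzymes of sterol synthesis, 5 regulators and 7 genes of sterol transport, efflux and storage. The study asked what happens in testis cells when the M5 muscarinic acetylcholine receptor (gene Chrm5) is knocked down, and sequenced polyadenylated RNA from 2 mouse cell lines. C18-4 is a line of spermatogonial stem cell origin and TM4 is a line of Sertoli cell origin, the somatic cell that nurses germ cells. Levels are RPKM (reads scaled to gene length and to the mapped reads of the library), a unit corrected for gene length, so that levels of different genes can be set side by side.

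There were 4 groups of 3 libraries, 12 in all. Each group is named by its line and hairpin. The C18-4 shNC group (C3NC in the labels) and the TM4 shNC group (TM3NC) carried a lentiviral control hairpin, and the C18-4 shM5 group (CM5) and the TM4 shM5 group (TMM5) carried a lentiviral mix of 3 hairpins against M5. All cells, controls included, had therefore been exposed to a lentiviral vector, and the strain is given as IRC for every library. C18-4 cells were grown in DMEM/F12 and TM4 cells in DMEM, so the line and the medium cannot be told apart in any comparison of the lines. Nothing in the labels says that the 3 libraries of a group came from separate cultures, so the p-values below measure the spread between these libraries, which may be technical.

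Chrm5 was listed between 0 and 0.01 RPKM in the 12 libraries, so its RNA does not check the knockdown. Over 23 low genes, the value of 1 read was nearly the same in every library (0.971 to 1.02 relative to the median). Genes whose values did not step alike across the libraries had been dropped before, so equal depth is not shown. The absolute depth is unknown. Of the 10 germ cell markers found, 3 reached a mean of 1 RPKM in C18-4 cells, with Uchl1, a ubiquitin hydrolase of spermatogonia, at a mean of 102 RPKM in shNC, while Ddx4, Dazl, Zbtb16 and Kit lay at or near 0. C18-4 cells also carried the Sertoli cell markers Wt1 (mean 58.6 RPKM in shNC) and Clu (7.35 RPKM). In TM4 cells 6 of the 12 Sertoli cell markers found reached 1 RPKM, among them the transcription factors Sox9 (1.35 RPKM in shNC) and Gata4 (9.75 RPKM), whereas Wt1, Clu and Amh stayed near 0. Of the 4 fibroblast markers, Col1a2 had a mean of 342 RPKM in TM4 shNC and 0.18 RPKM in C18-4 shNC, Col1a1 was at 163 and 307 RPKM in these groups, and Thy1 was at or near 0 in both. The 6 markers of steroid-making cells summed to at most 1.58 RPKM in any library. In C18-4 cells the summed germ cell markers ran from 80.8 to 124 RPKM in shNC and from 126 to 145 RPKM in shM5, and the summed Sertoli markers from 77.2 to 78.8 RPKM and from 83.4 to 92.1 RPKM. Neither sum overlapped between the groups, but each was mostly 1 gene. Uchl1 had means of 102 RPKM in shNC and 130 RPKM in shM5, and Wt1 of 58.6 and 68.8 RPKM. Other listed markers went either way, with Id4 (2.69 and 3.47 RPKM) higher in shM5 and Etv5 (2.09 and 1.74 RPKM) and Gata4 (6.60 and 4.69 RPKM) lower. The sums thus do not show a shift of either marker list, and their part in the C18-4 results was not tested.

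Cells build cholesterol from acetyl-CoA through the mevalonate pathway, which runs from acetoacetyl-CoA and HMG-CoA to isoprenoids, squalene, lanosterol and finally cholesterol. The genes are controlled together by the membrane-bound transcription factor SREBP2, which the escort protein SCAP carries to the Golgi for cleavage when sterols run low and which INSIG proteins hold back in the endoplasmic reticulum when sterols are plentiful. In the testis, cholesterol serves membranes and steroid hormones, and Sertoli cells take up and store lipid from the germ cells they clear.

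In C18-4 shNC cells the members ranged from Hmgcs1, the enzyme that makes HMG-CoA, at 69.5 ± 11.6 RPKM (SD, n = 3) to Abcg1, a cholesterol exporter, at 0 in the 3 libraries. Npc2, which hands cholesterol out of the lysosome, came next to Hmgcs1 at 62.3 ± 9.92 RPKM, a gap smaller than either spread. In TM4 shNC cells Msmo1, which takes methyl groups off early sterols, had the highest mean of the members, 117 ± 12.1 RPKM, and Fdps, which makes farnesyl diphosphate, followed at 76.2 ± 44.2 RPKM. The large spread of Fdps came from a single library, shNC replicate 3. Abca1, the other cholesterol exporter of the list, stayed low everywhere, at 0.52 to 0.77 RPKM in C18-4 and 0.06 to 0.17 RPKM in TM4 cells. Abcg1 was listed at 0 in 11 libraries and at 0.01 RPKM in TM4 shM5 replicate 2. It was tested only in alternatives without the filter on low values (a mean of at least 0.5 RPKM).

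**Figure D1:**
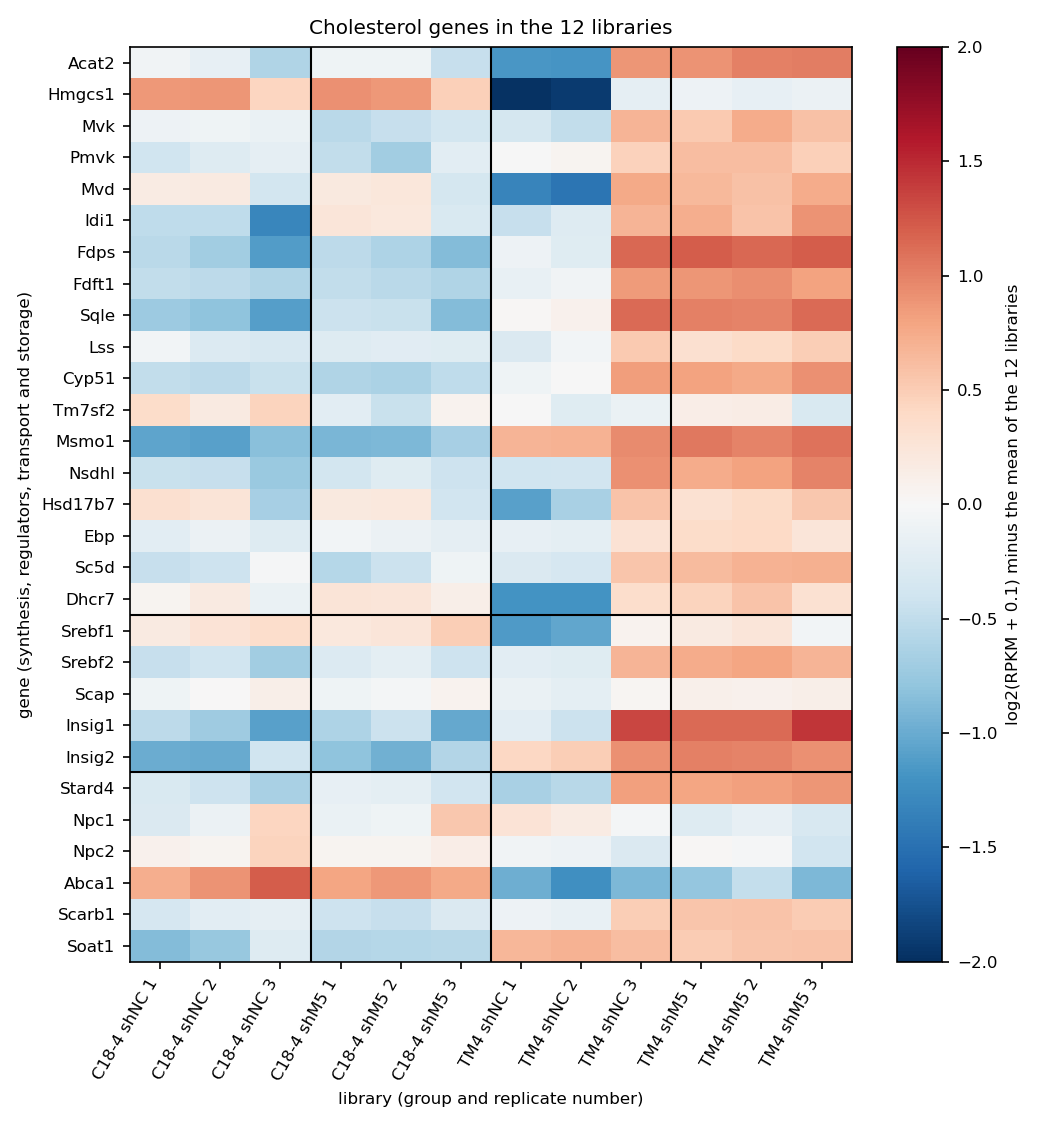
Levels of 29 members (rows, ordered by role; Abcg1 is left out because it was at or near 0) in the 12 libraries (columns). Colour gives log2(RPKM + 0.1) minus the gene's mean over the 12 libraries, with red above and blue below that mean. TM4 shNC replicates 1 and 2 form a bluer pair beside TM4 shNC replicate 3, whose column resembles those of TM4 shM5, and most rows of the C18-4 libraries show little difference between shNC and shM5.

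Because members of this pathway share control through their promoters, the sequence just before the start of 4 of them is shown. Hmgcs1, Acat2 and Insig1 were among the members with the largest differences in TM4 cells, and Idi1 had the largest in C18-4 cells. The sequences are the 250 bases before the RefSeq start of each gene in the mouse build GRCm38.p6, written 5′ to 3′ on the gene's strand: Hmgcs1 at chr13:119690101-119690350 on the plus strand, Acat2 at chr17:12960726-12960975 on the minus strand, Idi1 at chr13:8885356-8885605 on the plus strand and Insig1 at chr5:28071162-28071411 on the plus strand. Capitals mark matches to TCACNCCAC, CACGTG and CCAAT on either strand (the common CANNTG, also searched, is left unmarked), and a CCAAT box on the opposite strand reads ATTGG.
Hmgcs1: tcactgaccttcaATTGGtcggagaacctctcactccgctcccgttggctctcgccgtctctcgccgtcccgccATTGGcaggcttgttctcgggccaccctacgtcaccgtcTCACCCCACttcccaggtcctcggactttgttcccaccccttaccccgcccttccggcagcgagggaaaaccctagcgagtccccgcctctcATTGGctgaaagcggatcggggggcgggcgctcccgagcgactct
Acat2: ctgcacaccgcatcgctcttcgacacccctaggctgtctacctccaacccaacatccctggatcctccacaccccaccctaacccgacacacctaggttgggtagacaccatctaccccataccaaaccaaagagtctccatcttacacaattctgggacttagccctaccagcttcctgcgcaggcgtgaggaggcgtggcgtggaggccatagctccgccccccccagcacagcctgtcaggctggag
Idi1: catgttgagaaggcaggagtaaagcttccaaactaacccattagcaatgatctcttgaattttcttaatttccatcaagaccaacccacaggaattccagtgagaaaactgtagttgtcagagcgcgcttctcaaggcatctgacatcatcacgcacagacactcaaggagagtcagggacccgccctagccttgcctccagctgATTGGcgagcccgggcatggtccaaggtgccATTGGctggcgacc
Insig1: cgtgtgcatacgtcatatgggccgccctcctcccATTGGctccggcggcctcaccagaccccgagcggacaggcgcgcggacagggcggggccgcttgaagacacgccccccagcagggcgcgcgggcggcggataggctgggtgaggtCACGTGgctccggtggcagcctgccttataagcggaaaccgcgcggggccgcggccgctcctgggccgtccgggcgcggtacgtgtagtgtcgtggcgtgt
The Hmgcs1 window held the sterol regulatory element core TCACNCCAC, where N is any base, starting at position -137, and the Insig1 window held the palindromic E-box CACGTG starting at position -101. The Acat2 window held none of TCACNCCAC, CACGTG and CCAAT, which says only that these letters are not in it.

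Of the 30 members, 23 had an entry in the RefSeq promoter table, whose windows run from 250 bases before to 50 bases after the start, and the shares that follow count motifs on both strands in the whole window. TCACNCCAC was found in 1 of the 23 members (4.35%) and in 1.44% of the 27025 promoters of the table. CACGTG was found in 6 members (26.1%: Abca1, Dhcr7, Hsd17b7, Insig1, Sc5d and Scap) against 8.09% of all promoters and 12.1% of those of genes tested in TM4 cells. Its looser form CANNTG, which includes every CACGTG, was in 78.3% of the members and 75.0% of all promoters. The CCAAT box, which was added to the search after the data had been seen, was found in 20 of the 23 members (87.0%), against 41.1% of all promoters and 44.1% of those of genes tested in TM4 cells, and Abca1, Acat2 and Scap were the members without it. These shares describe letters in a window and were not tested.

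The question in C18-4 cells was whether M5 knockdown altered the sterol genes. Without pairing the libraries, none of the 29 members tested (those with a mean of at least 0.5 RPKM) passed an adjusted p of 0.05 in limma, in either direction. Over all 11611 genes tested, 0.293% were called higher and 0.293% lower. At an unadjusted p below 0.05 there were 3 members, and 1425 genes in all. The median log2 difference, shM5 minus shNC, was 0.04 over the 29 members and -0.00240 over all genes tested. Fewer cells of a given state and less RNA per cell cannot be told apart in these bulk libraries, here or in the later comparisons.

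Same-numbered C18-4 libraries deviated together, so a fit that blocks on replicate number is given beside the unpaired one. With the block, 3 members rose and 2 fell, where 5.21% of all genes were called higher and 6.73% lower. Idi1, the isomerase that readies the isoprenoid building block, stood at 10.82, 10.85 and 6.16 RPKM in shNC and at 18.20, 17.95 and 12.53 RPKM in shM5. The shM5 libraries lay above the shNC libraries without overlap, and replicate 3 was the lowest of its group on both sides. The log2 difference was 0.83 (SE 0.0787 with the block), or 1.77-fold, with an adjusted p of 0.00164 with the block and 0.245 without it.

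Sqle, squalene epoxidase, an oxygen-dependent step that controls flow into sterols, was at 26.05, 24.58 and 19.90 RPKM in shNC and at 31.91, 31.43 and 23.48 RPKM in shM5. The groups overlapped, but the shM5 library was the higher of every numbered pair, and the log2 difference was 0.29 (SE 0.0552, adjusted p = 0.0159 with the limma block, 0.519 without). Srebf2, which encodes SREBP2, was at 33.04, 34.34 and 28.18 RPKM in shNC and at 37.50, 39.88 and 34.05 RPKM in shM5. Its shM5 replicate 3 lay just under the highest shNC library, and the log2 difference was 0.22 (SE 0.0516, adjusted p = 0.0311 with the limma block, 0.454 without).

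The 2 members that fell, of 29 tested, were near the share of all genes called lower with the block (6.73%). Both were synthesis enzymes, as were 18 of the 29. Mvk, mevalonate kinase, was at 12.12, 12.25 and 11.78 RPKM in shNC and at 8.91, 9.41 and 10.05 RPKM in shM5. The groups did not overlap, and the log2 difference was -0.35 (SE 0.0724, adjusted p = 0.0226 with the limma block, 0.165 without). Tm7sf2, a sterol reductase, was much lower in level, at 3.40, 2.96 and 3.59 RPKM in shNC and 2.23, 1.89 and 2.73 RPKM in shM5. These groups did not overlap either, with a log2 difference of -0.53 (SE 0.113, adjusted p = 0.0243 with the limma block, 0.269 without). Mvk thus went the opposite way to Idi1, an enzyme of the same stretch of the pathway.

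In all, 2 members lay higher in shM5 without overlap (Idi1 and Nsdhl) and 2 lower (Mvk and Tm7sf2). The whole table gave 9.3% higher and 9.55% lower, so neither count stood out. Nsdhl, which removes a carboxyl group during demethylation of lanosterol, missed the threshold with the block (log2 difference 0.21, adjusted p = 0.0912 in limma). Counting numbered pairs, 10 of the 29 members were higher in shM5 in all 3 pairs and 7 were lower in all 3, against 2873 and 2991 of 11611 genes. Of the regulators, Srebf1, Scap, Insig1 and Insig2 had log2 differences between -0.03 and 0.08, and the transport and storage genes ran from -0.15 for Abca1 and Scarb1 to 0.21 for Stard4, with none called.

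**Figure D2:**
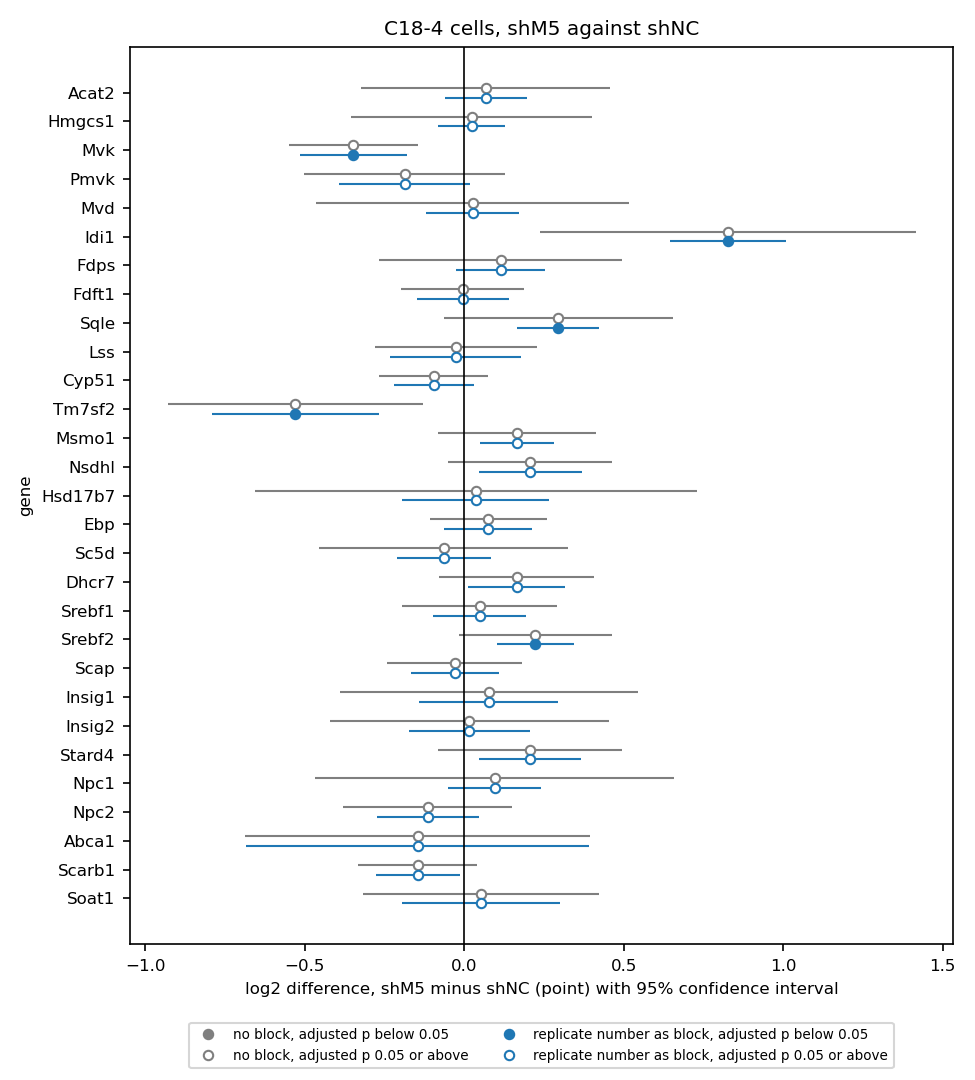
The log2 difference of each member in C18-4 cells, shM5 minus shNC (horizontal axis; points with 95% confidence intervals), without a block (grey) and with the replicate number as a block (blue). Filled points have an adjusted p below 0.05. The points are the same in both fits, the intervals are narrower with the block, and only Idi1, Sqle, Srebf2, Mvk and Tm7sf2 are filled.

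Over the members, C18-4 shNC replicate 1 differed from shNC replicate 3 by a root mean square of 0.438 log2 units and from shM5 replicate 1 by 0.232, so the distance to a library of the same group was the larger. Replicate 3 lay below the mean of replicates 1 and 2 in both groups for 15 of the 29 members and above it in both groups for 12, with the other 2 mixed. The lower set held most of the enzymes, among them Hsd17b7, a sterol ketone reductase, at -0.96 log2 units in shNC and -0.59 in shM5, and Mvd, the mevalonate diphosphate decarboxylase, at -0.54 and -0.56. Insig1, the SREBP2 target that retains SCAP, stood at -0.47 and -0.49 in the same way. The higher set held Npc1, the lysosomal cholesterol exporter, at 0.63 and 0.65, Insig2 at 0.61 and 0.30, and Sc5d, the sterol desaturase, at 0.41 in each group. Without replicate 3 of both groups, 5 members rose (Idi1, Sqle, Soat1, Srebf2 and Msmo1) and 3 fell (Tm7sf2, Mvk and Pmvk), where 12.8% of genes were called higher and 13.4% lower.

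In TM4 cells the same question met a control library that stood apart. Over the 28 members tested, shNC replicate 3 differed from shNC replicates 1 and 2 by a root mean square of 1.12 and 1.10 log2 units, and from the 3 shM5 libraries by 0.103 to 0.141. It lay nearer the shM5 mean than the mean of its shNC partners for 26 of the 28 members, as it did for 84.9% of all genes tested. The counts of members, the medians and the differences of the members described singly are therefore given with this library and without it, and the cause of its position was not tested. The 12 Sertoli markers found summed to 92.5 and 91.5 RPKM in shNC replicates 1 and 2, to 49.4 RPKM in shNC replicate 3 and to 44.5 to 48.0 RPKM in shM5. The fibroblast markers summed to 460 and 440 RPKM, then to 669 RPKM and to 665 to 887 RPKM. Both sums thus moved with the members, and their part in the results was not tested.

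With all 6 libraries, none of the 28 members passed the test in either direction, and 0% of the 11016 genes tested did in limma. At an unadjusted p below 0.05 there were 16 members, and 2866 genes in all. The members nonetheless had a median log2 difference of 0.66, shM5 minus shNC, beside 0.04 over all genes tested, and 26 of the 28 had a positive one. In 10 members the shM5 libraries lay above the 3 shNC libraries without overlap and in 2 below, where the table as a whole gave 15.7% and 11.1%.

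Without shNC replicate 3, 24 of the 28 members rose and 2 fell, where 36.5% of all genes were called higher and 30.9% lower. The median log2 difference was then 0.99 over the members and 0.04 over all genes tested. By the stricter threshold of the study's methods, an adjusted p of at most 0.001 and a log2 difference of at least 1, 12 members passed as higher, beside 4.15% of genes. That library was left out with its position known, so these calls describe how 2 control libraries differed from 3 shM5 libraries. In the raw levels, shNC replicates 1 and 2 were both below the other 4 TM4 libraries for 24 members and both above them for 2, while 40.7% and 35.4% of all genes behaved in these ways.

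**Figure D3:**
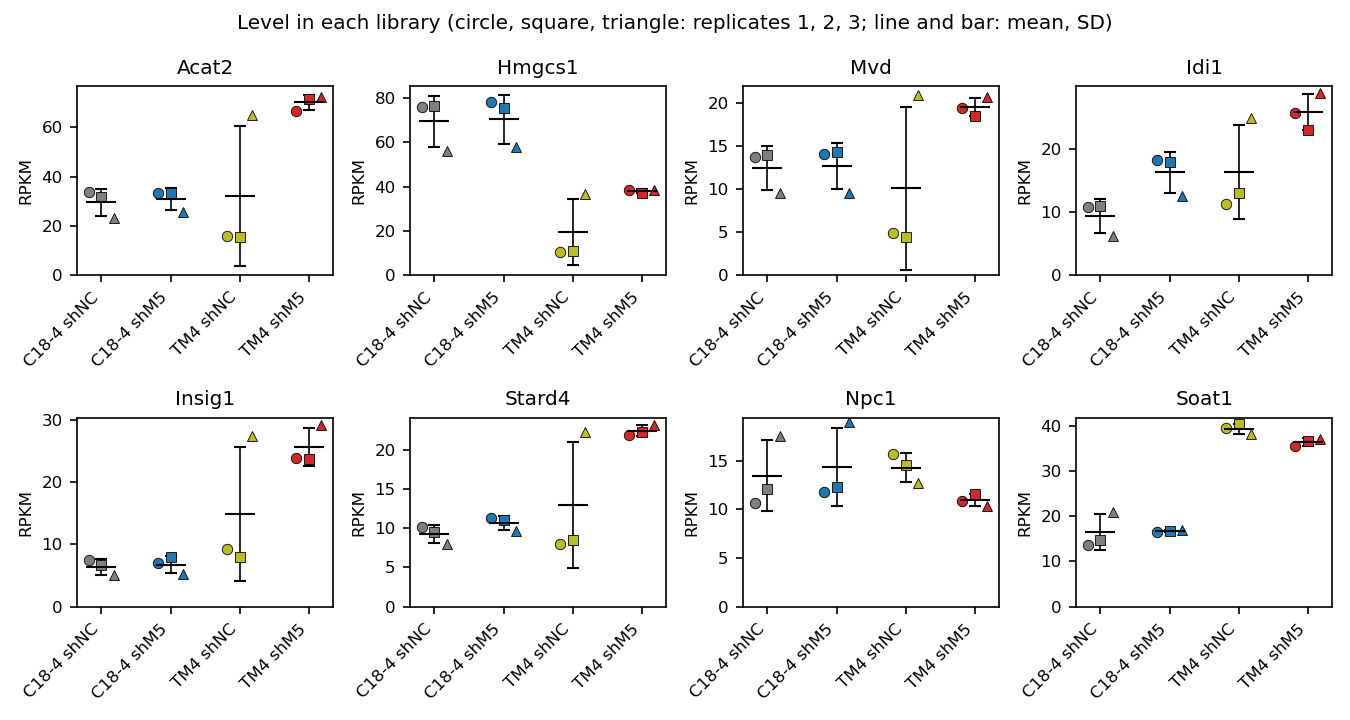
RPKM of 8 members in each library, by group (circle, square and triangle for replicates 1, 2 and 3; horizontal line and bar for the group mean and SD, n = 3). In TM4 cells the triangle of shNC sits at the height of shM5 for Acat2, Hmgcs1, Mvd, Idi1, Insig1 and Stard4, while in C18-4 cells the groups of Idi1 alone among these 8 do not overlap.

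The largest differences belonged to 3 enzymes that act before squalene. Acat2, the cytosolic thiolase that joins 2 acetyl-CoA, was at 15.81, 15.53 and 65.14 RPKM in shNC and at 66.54, 71.69 and 72.28 RPKM in shM5. The groups did not overlap, but only replicates 1 and 2 of shNC were far below. The log2 difference was 1.47 (SE 0.542, adjusted p = 0.192 in limma) with all libraries and 2.15 (SE 0.0512, 4.45-fold, adjusted p = 2.19e-07) without shNC replicate 3. Its close relative Acat3 was listed at 0.15 to 0.61 RPKM, and how reads shared by the pair were divided is not given in the sources used here.

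Hmgcs1, whose promoter with the sterol regulatory element core is shown above, was at 10.48, 10.98 and 36.75 RPKM in shNC and at 38.63, 37.12 and 38.32 RPKM in shM5. The 3 shM5 libraries were nearly level and just above shNC replicate 3. Its log2 difference was 1.23 (SE 0.469) with all libraries and 1.82 (SE 0.0498, 3.52-fold, adjusted p = 3.06e-07 in limma) without that one. Mvd was at 4.85, 4.38 and 20.92 RPKM in shNC and at 19.33, 18.51 and 20.61 RPKM in shM5, so that shNC replicate 3 was the highest of the 6. Its log2 difference was 1.34 (SE 0.573) with all libraries and 2.05 (SE 0.0748, 4.15-fold) without shNC replicate 3.

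Between HMG-CoA and squalene, the kinases Mvk and Pmvk rose by 1.03 and 0.55 log2 units without shNC replicate 3, where all libraries gave 0.67 and 0.40. Idi1 went from 11.21, 12.92 and 24.82 RPKM in shNC to 25.68, 22.96 and 28.77 RPKM in shM5, a log2 difference of 0.74 with all libraries and 1.09 (SE 0.102) without that one, so it was on the higher side in both lines. Fdps was at 53.09, 48.42 and 127.13 RPKM in shNC and at 133.09, 127.37 and 131.98 RPKM in shM5. Its groups touched without overlapping, and it rose 2.58-fold without shNC replicate 3 (log2 difference 1.37, SE 0.0502, and 0.92 with all libraries). Fdft1, squalene synthase, rose by 0.98 log2 units on the same libraries, and its difference was 0.66 with all of them.

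The later, sterol-shaping steps followed the same order of libraries with mostly smaller sizes. Without shNC replicate 3, Dhcr7, which makes cholesterol in one of the last reductions, rose most of them, by 1.63 log2 units (SE 0.0818; 1.12 with all libraries), from 5.75, 5.77 and 17.08 RPKM in shNC to 18.07, 19.80 and 16.55 RPKM in shM5. Its shNC replicate 3 lay inside the shM5 range. Hsd17b7 and Nsdhl rose by 1.28 and 1.23 log2 units, Sqle by 1.0, Sc5d by 0.99, Cyp51, the lanosterol demethylase, by 0.87, Lss, the cyclase that makes lanosterol, by 0.57, and Ebp, a sterol isomerase, by 0.52. Msmo1, already the most abundant member in these cells, rose least of the enzymes called, by 0.35. With all libraries these differences were 0.80 for Hsd17b7 and for Nsdhl, 0.63 for Sqle, 0.70 for Sc5d, 0.58 for Cyp51, 0.34 for Lss, 0.36 for Ebp and 0.27 for Msmo1. Tm7sf2 was the only enzyme not called, at 2.59, 2.18 and 2.37 RPKM in shNC and 2.85, 2.88 and 2.10 RPKM in shM5, with overlapping groups and a log2 difference of 0.12 in both fits (95% confidence interval -0.27 to 0.50 without shNC replicate 3).

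The 5 regulators all rose without shNC replicate 3 and none passed with it. Insig1 was at 9.30, 8.03 and 27.40 RPKM in shNC and at 23.97, 23.79 and 29.18 RPKM in shM5, and its log2 difference was 1.0 with all libraries and 1.55 (SE 0.105, 2.93-fold) without that one. Srebf1, which encodes the SREBP1 factor of fatty acid synthesis, was at 6.32, 6.75 and 14.73 RPKM in shNC and at 15.88, 16.63 and 13.53 RPKM in shM5, with a log2 difference of 0.83 with all libraries and 1.21 (SE 0.0946) without it. Srebf2 was at 39.47, 38.40 and 72.59 RPKM in shNC and at 75.99, 78.27 and 72.97 RPKM in shM5, with a log2 difference of 0.66 with all libraries and 0.96 (SE 0.0457) without it. The sterol sensor Scap and the second anchor Insig2 moved less, by 0.27 and 0.51 log2 units (0.20 and 0.36 with all libraries).

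Transport and storage genes did not move as a block. Stard4, which ferries cholesterol between membranes, was at 8, 8.55 and 22.24 RPKM in shNC and at 21.87, 22.25 and 23.21 RPKM in shM5, and rose by 1.43 log2 units (SE 0.0589) without shNC replicate 3 (0.96 with all libraries). Scarb1, the receptor for high-density lipoprotein, rose by 0.67 (0.46 with all libraries). Npc1 fell by 0.46 log2 units (SE 0.0706, adjusted p = 0.000724 in limma), from 15.68, 14.51 and 12.66 RPKM in shNC to 10.82, 11.60 and 10.38 RPKM in shM5. Its 2 groups did not overlap even with shNC replicate 3, although that fit gave a log2 difference of -0.38 and an adjusted p of 0.192.

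Soat1, which esterifies cholesterol for storage, was at 39.47, 40.43 and 38.23 RPKM in shNC and at 35.54, 36.64 and 37.20 RPKM in shM5. This small difference was again free of overlap, and amounted to -0.13 log2 units (SE 0.0442, adjusted p = 0.0301) without shNC replicate 3 and to -0.11 with it. Npc2, the soluble partner of Npc1, was at 51.21, 50.46 and 44.07 RPKM in shNC and 54.82, 52.95 and 41.26 RPKM in shM5, and was not called, with a log2 difference of 0.02 with all libraries and -0.04 without shNC replicate 3 (95% confidence interval -0.31 to 0.22). In both TM4 groups its replicate 3 was the lowest.

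**Figure D4:**
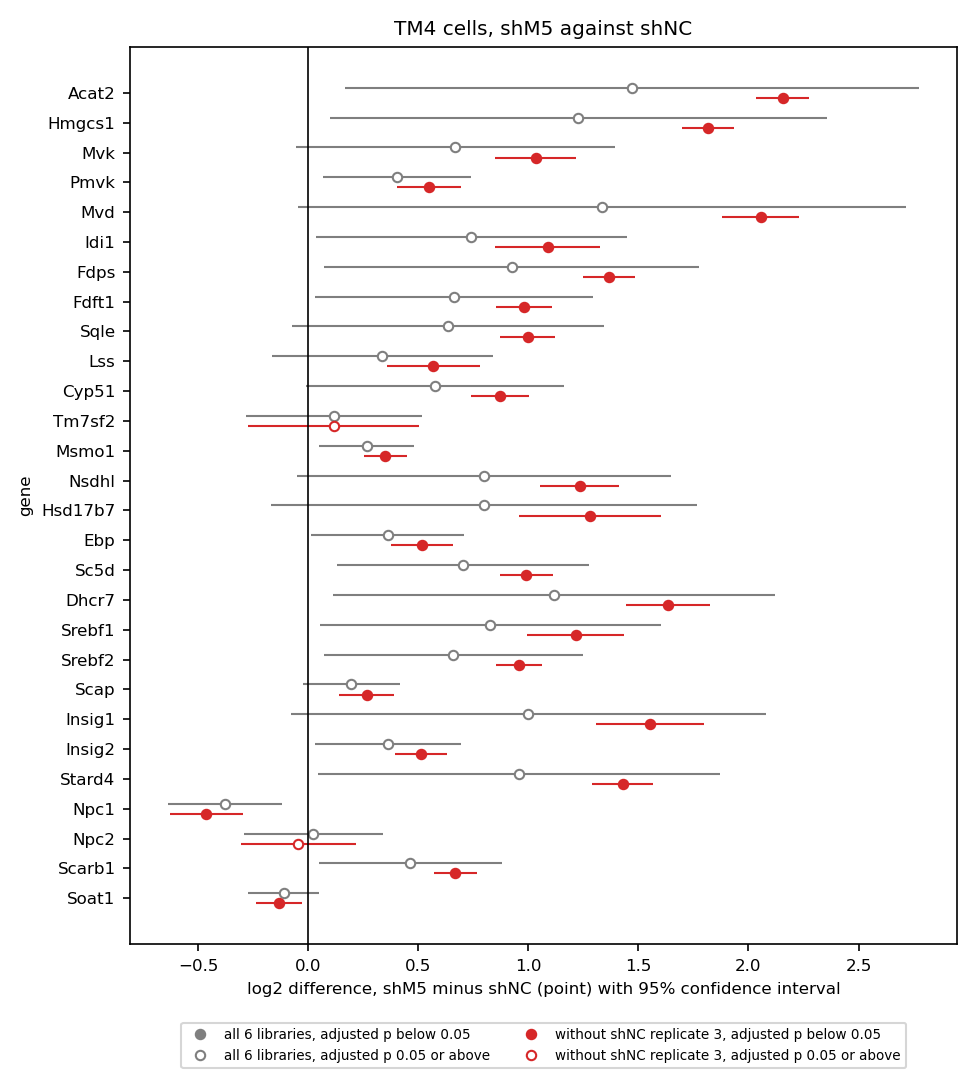
The log2 difference of 28 members in TM4 cells, shM5 minus shNC (horizontal axis; points with 95% confidence intervals), from all 6 libraries (grey) and without shNC replicate 3 (red). Filled points have an adjusted p below 0.05. No grey point is filled, whereas 26 red ones are, all but Npc1 and Soat1 to the right of 0.

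Whether M5 knockdown acted differently in the 2 lines was tested as the TM4 difference minus the C18-4 difference. With the 12 libraries none of the 28 members passed, where 0.068% of genes were called higher and 0.034% lower, and 9 members had an unadjusted p below 0.05, as did 2463 of the 11773 genes tested. The median over the members was 0.63 log2 units, beside 0.04 over all genes tested. Without TM4 shNC replicate 3, 21 members had a difference called more positive in TM4 and 0 more negative, beside 21.5% and 16.4% of genes, with a median of 0.89.

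The largest of these differences without TM4 shNC replicate 3 were those of Acat2 (2.09 log2 units, SE 0.206), Mvd (2.03, SE 0.263) and Hmgcs1 (1.79, SE 0.199). Mvk, lower in C18-4 shM5 and higher in TM4 shM5 on these libraries, differed by 1.38 (SE 0.118, adjusted p = 4.15e-05 in limma). In TM4 cells Mvk was at 10.19, 9.22 and 20.81 RPKM in shNC and at 18.76, 21.69 and 19.48 RPKM in shM5. Those groups overlapped through shNC replicate 3. With all libraries and no block, Mvk was called in neither line (adjusted p = 0.165 in C18-4 and 0.195 in TM4 cells, limma). For Idi1 a difference between the lines was not shown, at 0.26 log2 units with a 95% confidence interval of -0.46 to 0.98 and an adjusted p of 0.554. Msmo1, Insig2, Tm7sf2, Npc1, Npc2 and Soat1 were the other members not called. With all 12 libraries the differences were 1.40 for Acat2, 1.31 for Mvd, 1.20 for Hmgcs1, 1.02 for Mvk and -0.08 for Idi1, and none of these was called.

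The shNC libraries of the lines were compared to place the 2 cell types. TM4 was called higher for 8 of the 28 members tested and lower for 3, where 20.5% of all genes were higher and 34.7% lower. The median log2 difference, TM4 minus C18-4, was 0.30 over the members and -0.15 over all genes tested. In 13 members the TM4 shNC libraries lay above the C18-4 shNC libraries without overlap and in 4 below, beside 24.3% and 39.3% of genes. Centring each library on its median moved the median of all genes to -0.02, and gave 9 members higher and 1 lower (over all genes, 3019 and 3459 in place of 2422 and 4095).

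Msmo1 differed most among the higher members. It was at 109.60, 110.41 and 131.01 RPKM in TM4 and at 32.86, 32.06 and 38.33 RPKM in C18-4 shNC, a log2 difference of 1.76 (SE 0.119, adjusted p = 2.17e-05 in limma). Insig2 followed with 1.41 (SE 0.213), from 34.82 to 49.12 RPKM in TM4 and from 12.96 to 19.84 RPKM in C18-4. Sqle and Soat1 were higher in TM4 by 1.29 and 1.28 log2 units, Fdps by 1.05, Fdft1 by 0.75, Cyp51 by 0.74 and Pmvk by 0.45. Fdps, Fdft1 and Cyp51 came to 0.61, 0.43 and 0.44 without TM4 shNC replicate 3 and were still called, but they and Pmvk lost the call without any single C18-4 shNC library.

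Hmgcs1 went strongly the other way. It was at 76.00, 76.36 and 56.13 RPKM in C18-4 shNC against 10.48, 10.98 and 36.75 RPKM in TM4 shNC, a log2 difference of -2.08 (SE 0.470, adjusted p = 0.00849 in limma). Srebf1 (-0.97) and Tm7sf2 (-0.46) were the other members lower in TM4, and neither call was stable. Srebf1 lost it in 7 of the 11 alternatives that refitted the model, and Tm7sf2 lost it in 7 and turned direction in 1 more. Median centring was among those that lost both calls (adjusted p = 0.0535 and 0.0861 in limma). Hmgcs1 was the highest of the members in C18-4 shNC, and the later enzyme Msmo1 in TM4 shNC.

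TM4 shNC replicate 3 weighed on this comparison too. Without it, 9 members were higher and 7 lower, beside 27% and 42% of genes, and Dhcr7 (-1.23), Mvd (-1.39), Acat2 (-0.89) and Mvk (-0.31) joined the lower members. Between the shM5 libraries of the lines, 21 members were higher in TM4 and only Hmgcs1 (-0.88) was lower, beside 29% and 42.5% of genes, with a median of 1.03. The largest log2 differences there were 1.92 for Insig1, 1.86 for Msmo1, 1.86 for Fdps and 1.75 for Insig2. Hmgcs1, Sqle, Msmo1, Insig2 and Soat1 kept their call in the 11 alternatives that refitted the model.

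**Figure D5:**
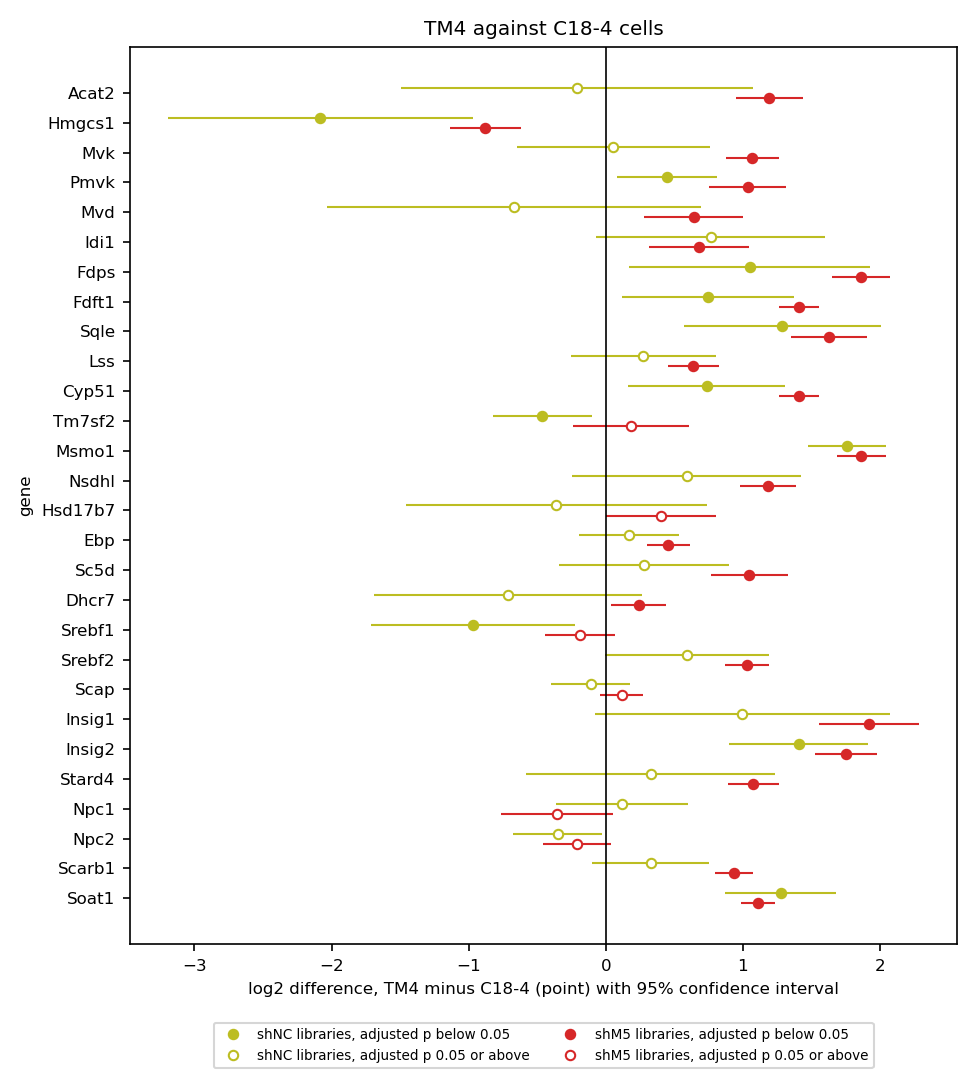
The log2 difference of 28 members between the lines, TM4 minus C18-4 (horizontal axis; points with 95% confidence intervals), in the shNC libraries (olive) and in the shM5 libraries (red). Filled points have an adjusted p below 0.05. Hmgcs1 lies left of 0 in both, and most red points lie to the right of their olive partners, with 21 red points filled to the right of 0.

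A wider list of 54 genes of sterol and SREBP-driven lipid metabolism placed the members in context. In C18-4 cells 0 of the 47 listed genes tested were called without the block. With it, 4 rose and 3 fell, beside 5.21% and 6.73% of all genes, so the fallers were near the background share. The risers were the oxysterol-binding relative Osbpl5 (log2 difference 0.39), the endoplasmic reticulum membrane protein Erlin2 (0.32), the malic enzyme Me1 (0.25) and the desaturase Fads2 (0.19). Of the 3 that fell, only the desaturase Scd1 (-0.46) had groups that did not overlap.

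In TM4 cells 0 of 47 were called with all libraries, and without shNC replicate 3 there were 22 that rose and 14 that fell. All genes gave 36.5% and 30.9% there, so the share of fallers did not stand out. Scd2, a desaturase that makes oleate, was at 88.05, 89.96 and 271.82 RPKM in shNC and at 276.00, 277.37 and 273.77 RPKM in shM5, a log2 difference of 1.63 without shNC replicate 3 and 1.09 with it. It placed shNC replicate 3 with shM5, as the synthesis enzymes did. Rnf145 (1.43), a ubiquitin ligase of sterol sensing, the fatty acid elongase Elovl6 (1.18), the lipoprotein receptor Lrp8 (0.84) and the sterol-binding membrane protein Tmem97 (0.82) also rose without it. With all libraries these genes had differences of 1.02, 0.83, 0.55 and 0.56.

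Among the genes that fell without shNC replicate 3, 5 were named by size. Vldlr, another lipoprotein receptor, was at 50.15, 54.64 and 21.82 RPKM in shNC and at 20.15, 19.74 and 18.95 RPKM in shM5, a log2 difference of -1.41 (-0.99 with all libraries). Stard5, a sterol-carrying relative of Stard4, went the opposite way to Stard4 itself, at 40.80, 39.09 and 9.86 RPKM in shNC and 9.53, 10.52 and 8.74 RPKM in shM5 (-2.05, and -1.38 with all libraries). Soat2, the second cholesterol esterifying enzyme, was scarce, at 1.97, 2.52 and 0.17 RPKM in shNC and 0.06, 0.17 and 0.04 RPKM in shM5. Its log2 difference was -2.64 with all libraries. Soat2 passed the level filter only through shNC replicates 1 and 2, and its other values lay near the added 0.1 RPKM, so that size is uncertain. Erlin1 (-1.23) and Osbpl8 (-0.86) completed the 5, and stood at -0.80 and -0.58 with all libraries.

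For the difference between the lines in the M5 knockdown response, 0 of the 47 listed genes tested were called with all libraries, and 14 of 48 were more positive and 7 more negative in TM4 without TM4 shNC replicate 3, beside 21.5% and 16.4% of all genes. Between the shNC libraries of the lines, 13 of the 48 tested were higher in TM4 and 15 lower, beside 20.5% and 34.7% of all genes, so neither count was far from the background. Lrp8 (2.60), the sterol transfer protein Gramd1b (2.12), Scd1 (2.02), Vldlr (1.94) and the receptor Lrp1 (1.66) were the most raised in TM4. The sterol-sensing nuclear receptor Nr1h3 (-2.38), the acetyl-CoA synthetase Acss2 (-1.63), Rnf145 (-1.11), Fads2 (-0.99) and the lysosomal sterol carrier Stard3 (-0.98) were the most lowered. Nr1h3 was at 1.25, 0.73 and 1.09 RPKM in C18-4 shNC and at 0.04, 0.22 and 0.11 RPKM in TM4 shNC. It passed the level filter only through its C18-4 values, and its TM4 values lay near the added 0.1 RPKM, so the size of its difference is uncertain.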

How the data were processed

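RNA was sequenced from C18-4 and TM4 cells, and the authors deposited a table of RPKM values per gene for the 12 libraries. The study's methods name oligo(dT) selection, Illumina HiSeq sequencing and, with the submitters' processing notes, SOAPaligner 2.20; the genome build and annotation are not given in the sources used here. RPKM holds no read counts, so no count model was fitted and no interval from counts was given. Values were used as log2(RPKM + 0.1), a scale that understates changes of low genes, with limma 3.58.1 in R 4.3.3 (empirical Bayes with a mean-variance trend) on genes averaging 0.5 RPKM or more over the fitted libraries, and Benjamini-Hochberg adjustment over all of them. A call is an adjusted p below 0.05, and the procedure was tested on simulated data. The 4 comparisons were shM5 against shNC in each line, the difference between these, and TM4 against C18-4 shNC.

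The C18-4 deviations of same-numbered libraries from their group means correlated at 0.439, 0.409 and 0.631, so the numbers were taken as pairs there from the values, the labels giving no reason for it. Replicates 1 and 2 of opposite groups correlated at 0.341 and 0.345, so the values set apart replicate 3 far more than they tell 1 from 2. Alternatives were another pseudocount, no filter, median centring, no trend, the study's threshold, the block and leaving out libraries. The members and lists were chosen with earlier results of these data known. Named genes of the wider list were up to 5 per direction, by size, among those called with no overlap between groups (without TM4 shNC replicate 3 in TM4 cells). Promoter sequences came from RefSeq. Figures were drawn with matplotlib 3.10.9.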

Additional observations from a re-analysis of the deposited data

How the results depend on the processing

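Of 164 counts and medians under an alternative, 136 stayed within the limits set for a change. In C18-4 cells, the replicate block gave 3 members called higher and 2 lower in place of 0 and 0, and leaving out replicate 3 of both groups gave 5 and 3. Leaving out each library in turn gave 0 and 0, with the members' median between -0.00891 (without shM5 replicate 2) and 0.0564 log2 units. In TM4 cells same-numbered libraries correlated at 0.0729, 0.0489 and 0.127, so the numbers did not pair them, and the replicate block called 0 genes (2568 at an unadjusted p below 0.05). Leaving out each TM4 library in turn gave 0 to 24 higher and 0 to 2 lower, with a median of 0.466 to 0.986, and leaving out replicate 3 of both groups gave 24 and 2. For the difference between the lines, leaving out each library gave 0 to 21 higher, 0 lower and a median of 0.489 to 0.891, and the replicate block called 0 members. The calls came from leaving out TM4 shNC replicate 3.

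For TM4 against C18-4, where no pairing of numbers across lines exists, the counts were 8 higher and 3 lower. They were 2 and 0 at the study's threshold, 5 higher with no filter on low values, 5 higher with no mean-variance trend, and 1 lower with median centring. Leaving out each library in turn gave 4 to 9 higher, 1 to 7 lower and a median of 0.0831 to 0.437. The shM5 libraries gave 21 higher, 1 lower and a median of 1.03. Direction turned in this comparison for Acat2 (0.125 and 0.137 without TM4 shNC replicates 1 and 2, against -0.893 without replicate 3, and 1.19 in shM5), Mvk (-0.311 to 0.272), Sc5d (-0.00883 to 0.434) and Stard4 (-0.145 to 0.586) with each library left out, the lowest being without TM4 shNC replicate 3, and Mvd (0.642), Tm7sf2 (0.187), Dhcr7 (0.239), Hsd17b7 (0.403), Scap (0.116, and 0.02 with median centring) and Npc1 (-0.358, and -0.03 without C18-4 shNC replicate 1) in the shM5 libraries. Of the uncalled members, 16 turned in C18-4 cells under some library left out (up to 0.284 log2 units, with 0 called), as did 1 in TM4 cells (Npc2) and 1 for the difference between the lines (Idi1). The cause was not tested. A further count of 993 values covers only members called in the main fit of a comparison or in a chosen alternative to it. Of these values, 852 kept direction and side of the threshold, 34 lost a call, 98 gained it and 9 turned direction. The turns of the uncalled members given above are outside this count, so it does not measure how stable direction was over all members. With 3 libraries a group and no read counts, small differences of low genes such as Abca1 could not be resolved.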
